A study of Mus musculus with 8 samples.

Results

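The collagen gene family was followed in ventricles of heterozygous knock-in mice and their wild-type littermates, from tissue of the left chamber that included the septum. Members were all probes of the deposited non-normalized table whose symbol is Col, a number, the letter a and a number. This gave 56 probes of 36 genes among 25697 probes of 18120 symbols. The study compared 4 heterozygous knock-in mice (het in the plots) with 4 wild-type littermates (WT), all on a Swiss Agouti background and 12 months old. Each mouse gave 1 Illumina bead array, and the labels call the mice biological replicates. The sex of the mice is not stated. Whole tissue was extracted, so fewer cells of a type and less RNA per cell cannot be told apart in any value below.

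Collagens are trimeric proteins of the extracellular matrix, built from chains with long glycine-rich repeats. Fibrillar collagens form the tensile fibres that are laid down by cardiac fibroblasts and accumulate in fibrosis, while type IV collagen forms the sheet-like network of the basement membrane around cardiomyocytes and capillaries. FACIT collagens, the fibril-associated collagens with interrupted helices, sit on the surface of fibrils, and other members form beaded filaments, hang in the basement membrane zone or span the cell membrane. The study's title names left ventricular fibrosis with ageing in this model, and the comparison asks how the transcripts of this family differ between the genotypes at this age.

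The arrays detected between 10094 and 11545 probes each (detection p under 0.01), most in heterozygote 3, and the median deposited intensity lay between 4.98 and 7.56. Having 4 arrays for each genotype limits the precision. Of 9 measured genes listed as ventricular cardiomyocyte markers the mean normalized log2 intensity was 11.97 to 12.23 in heterozygotes and 12.21 to 12.35 in wild types. Most of them, such as Myh6 and Ttn, are not confined to the ventricle, so the list cannot tell the chambers apart. Myl2, the ventricular light chain, was detected on all 8 arrays. The array of heterozygote 3 was the least like the rest, at a mean r of 0.950 over detected probes, and the other 7 had 0.971 to 0.977.

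Most collagen probes were at background in these ventricles. A probe was counted as detected when its detection p was under 0.01 on 4 or more of 8 arrays, which held for 14 of 56 collagen probes (25.0%) and for 41.0% of all probes on the array. Those 14 probes covered 13 of the 36 genes, and 13 of the 14 were detected on all 8 arrays, so the filter did not take them for being high in 1 genotype. Basement membrane collagens had 4 of 9 probes detected (44.4%), fibrillar collagens 3 of 15 (20%), FACIT collagens 2 of 9 (22.2%) and other collagens 5 of 23 (21.7%). Another 10 probes were detected on 1 to 3 arrays and 32 on 0. The plot of probes by class shows the same counts.

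**Figure D1:**
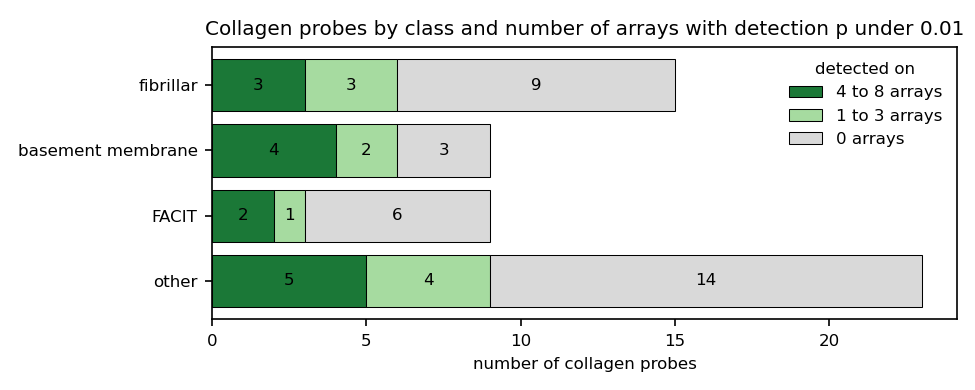
Collagen probes of each class (vertical axis) by the number of arrays that detected them (horizontal axis, number of probes, bars stacked from 0). Dark green marks 4 to 8 arrays, light green 1 to 3 arrays and grey 0 arrays. Basement membrane collagens have 4 of 9 probes in dark green and fibrillar collagens 3 of 15.

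The detected genes were Col1a1, Col3a1 and Col5a1 among the fibrillar collagens and Col4a1, Col4a2, Col4a4 and Col4a5 among those of the basement membrane. Col14a1 and Col16a1 were the detected FACIT members, and Col6a1 (on a pair of probes), Col6a2, Col15a1 and Col18a1 the detected others. At the edge of the filter, the Col4a4 probe was detected on 7 arrays, with deposited intensities between 8.93 and 31.0. Just outside it, a further Col3a1 probe was detected on 3 arrays, with intensities between 0.295 and 17.3. The number of collagen probes detected per array was 14, 14, 19 and 16 in heterozygotes and 15, 18, 15 and 15 in wild types, highest in heterozygote 3 and wild type 2.

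No collagen probe passed the test between the genotypes. In the fit over all 10547 detected probes (limma on log2 intensity, heterozygote minus wild type, with Benjamini-Hochberg adjustment), 0 probes had an adjusted p under 0.05, or 0.00%, and the smallest adjusted p over all probes was 0.947. Before adjustment 493 probes (4.67%) had a p under 0.05, 215 higher (2.04%) and 278 lower (2.64%) in heterozygotes, and 0 of them were collagens. The genotypes did not overlap for 281 probes (2.66%), with 161 higher (1.53%) and 120 lower (1.14%) in heterozygotes, and for 0 of 14 collagen probes.

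The estimates for collagens lay mostly above 0. The mean was higher in heterozygotes for 11 of 14 collagen probes (78.6%) and lower for 3, beside 50.1% and 49.9% of all detected probes. The median difference of the 14 probes was 0.17 on the log2 scale, beside 0.0006 over all detected probes. Without heterozygote 3 the count was 10 of 14 and the median 0.047. Without wild type 2 it was 13 of 14 and 0.31, and without both mice 12 of 14 and 0.19. The probes vary together across mice and share the same 8 arrays, so the 14 estimates are not independent.

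**Figure D2:**
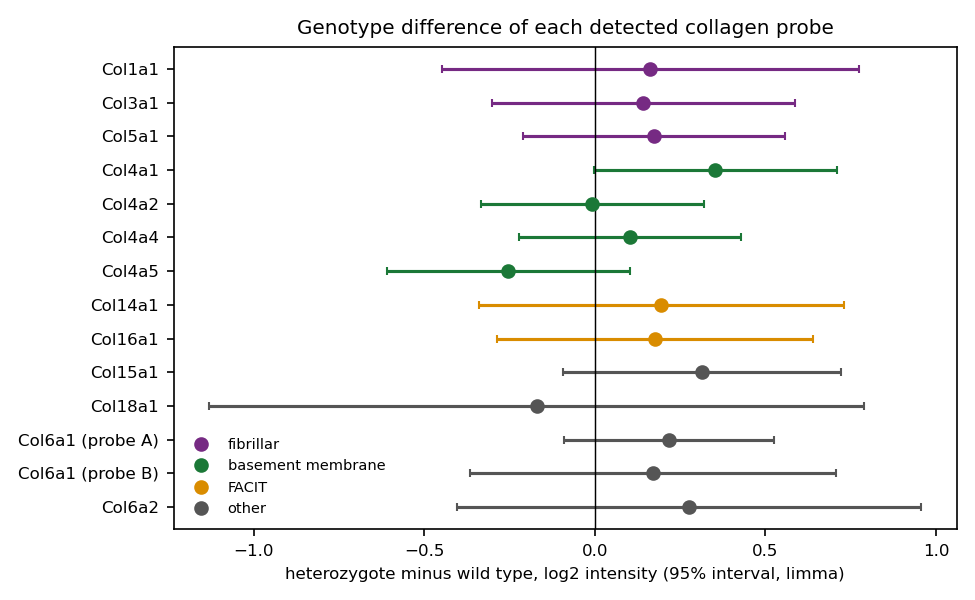
Difference of each detected collagen probe, heterozygote minus wild type, in log2 intensity (horizontal axis), with its 95% interval from limma (bars), by probe (vertical axis) and class (colour). All 14 intervals reach 0 or cross it, and Col4a1 at 0.35 and Col15a1 at 0.31 are farthest above 0.

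Basement membrane collagens had estimates on both sides of 0. The Col4a1 and Col4a2 chains assemble together into the type IV collagen of vessels and muscle, and their genes lie head to head on chromosome 8. Their promoter windows in RefSeq (GRCm38.p6, 250 bases before to 50 after the start) are shown because the genes share this region and their estimates lay apart. The annotated starts lie 21 bases apart, at 11312826 for Col4a1 and 11312805 for Col4a2. Each start lies inside the other gene, so the annotated 5′ ends overlap and no gap separates them. The windows are chr8:11312777-11313076 on the minus strand for Col4a1 and chr8:11312555-11312854 on the plus strand for Col4a2, and they overlap by 78 bases. Each is written 5′ to 3′ on its gene's strand. Capitals mark matches, on either strand, to CCAAT (the CCAAT box) and GGGCGG (the GC box). TATAAA (the TATA box) was searched too and has no match in either.
Col4a1: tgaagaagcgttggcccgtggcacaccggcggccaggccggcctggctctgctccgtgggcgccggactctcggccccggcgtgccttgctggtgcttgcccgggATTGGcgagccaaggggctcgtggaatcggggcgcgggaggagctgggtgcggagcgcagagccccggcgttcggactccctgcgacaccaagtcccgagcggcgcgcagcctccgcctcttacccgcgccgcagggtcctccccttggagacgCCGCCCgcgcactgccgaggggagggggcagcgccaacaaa
Col4a2: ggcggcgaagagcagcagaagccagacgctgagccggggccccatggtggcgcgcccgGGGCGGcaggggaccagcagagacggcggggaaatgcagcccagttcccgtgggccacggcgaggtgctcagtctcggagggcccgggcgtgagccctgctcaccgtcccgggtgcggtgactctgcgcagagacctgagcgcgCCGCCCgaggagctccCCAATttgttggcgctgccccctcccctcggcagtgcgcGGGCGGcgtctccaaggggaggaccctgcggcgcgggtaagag
CCAAT or its reverse complement occurs in 37.4% of 32851 mouse promoter windows of this length, GGGCGG in 35.7% and TATAAA in 13.6%. The windows share 1 of these matches, a GC box at chr8:11312812-11312817. It lies downstream of both annotated starts, at position 10 for Col4a1 and 8 for Col4a2. Of the 13 detected collagen genes, 11 had a window in the table, 5 of them with a CCAAT match, 7 with a GC box match and 1, Col3a1, with a TATA box match. These counts are by gene and the percentages by window, and Col18a1 and Col6a2 have more than 1 window each. The counts and percentages are therefore not directly comparable. A match is a description of letters, not of a bound site.

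Col4a1 had deposited intensities of 2474, 2163, 1985 and 2388 in heterozygotes, against 1049, 2347, 1954 and 1262 in wild types. The heterozygotes lay close together, and wild types 1 and 4 were low while wild type 2 reached into the heterozygote range. After normalization the level averaged 11.08 ± 0.08 in heterozygotes and 10.72 ± 0.28 in wild types (log2 intensity, SD, n = 4 each), and wild type 2, at 11.05, lay above heterozygotes 3 and 4. The difference was 0.35 (SE 0.16, 95% interval -0.0014 to 0.71), or 1.28-fold, with an unadjusted p of 0.0508 and an adjusted p of 0.947 (limma). It ranked 499 of 10547 probes by p. Leaving out 1 mouse at a time gave 0.27 (without wild type 4) to 0.46 (without wild type 2). Over all settings the unadjusted p ran from 0.0136, without heterozygote 3 and wild type 2, to 0.137, without wild type 1.

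Col4a2 had an estimate near 0. Its intensities were 1152, 1252, 949 and 1346 in heterozygotes, against 838, 1234, 1256 and 845 in wild types. After normalization it averaged 10.11 ± 0.20 in heterozygotes and 10.12 ± 0.14 in wild types (log2 intensity, SD, n = 4 each). The difference was -0.0073 (95% interval -0.33 to 0.32), and folds above 1.25 lay outside the interval. It was 0.015 with cyclic loess and 0.17 with median scaling, which moved the median of all probes to 0.14. The log2 ratio of Col4a1 to Col4a2 within each array was 1.13, 0.78, 1.10 and 0.86 in heterozygotes and 0.33, 0.89, 0.64 and 0.57 in wild types. All 4 heterozygotes lay above wild types 1, 3 and 4, and heterozygotes 2 and 4 lay below wild type 2. The mean ratio differed by 0.36 between the genotypes, and by 0.27 to 0.45 over the 22 settings tried. Some of these settings, such as the detection filters, the replicate block and the eBayes option, cannot move it. This ratio was chosen after its values were seen and was not tested.

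The minor type IV chains lay on both sides of 0. Col4a5, an X-linked chain found in basement membranes of kidney and smooth muscle, had intensities of 72.9, 98.5, 109 and 132 in heterozygotes, against 72.8, 131, 115 and 120 in wild types. On the normalized scale heterozygote 1 was lowest at 6.44 and wild type 4 highest at 7.25, and the genotypes overlapped. The difference was -0.25 (95% interval -0.61 to 0.10), or -0.32 to -0.14 with 1 mouse left out. Col4a4, known from the glomerular basement membrane, was dim on every array and differed by 0.10 (95% interval -0.22 to 0.43), by 0.21 without the normexp correction and by 0.23 in the authors' normalized values. It was 0.055 without heterozygote 3 and 0.01 without wild type 1. Col4a3, its partner chain, was detected on 0 arrays, and the 3 probes of Col4a6 on 0, 1 and 1.

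Multiplexins, which carry endostatin-like domains in the basement membrane zone, had estimates of opposite sign. Col15a1, found around capillaries and cardiomyocytes, had intensities of 642, 516, 501 and 547 in heterozygotes, against 270, 515, 538 and 257 in wild types. As for Col4a1, wild types 1 and 4 were low, and wild types 2 and 3 lay among the heterozygotes. It averaged 9.03 ± 0.16 in heterozygotes and 8.71 ± 0.34 in wild types (log2 intensity, SD, n = 4 each). The difference was 0.31 (95% interval -0.09 to 0.72), or 1.24-fold, with an adjusted p of 0.947 (limma), and it was 0.17 without wild type 4. Col18a1, the precursor of endostatin, had intensities of 223, 218, 644 and 395 in heterozygotes, against 143, 933, 307 and 290 in wild types. Heterozygote 3 and wild type 2 were high, and the difference was -0.17 with a wide interval (-1.13 to 0.79). It was -0.49 without heterozygote 3 and 0.23 without wild type 2.

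Fibrillar collagens all had small positive estimates with intervals that crossed 0. Col1a1, the main chain of type I collagen in scar, had intensities of 124, 122, 204 and 153 in heterozygotes, against 77.1, 217, 165 and 55.0 in wild types. Wild types spanned the whole range, from wild type 4 at the bottom to wild type 2 at the top, and all heterozygotes lay inside it. The difference was 0.16 (95% interval -0.45 to 0.77) and -0.10 without wild type 4. Col3a1, the chain of type III collagen, which is found with type I in the cardiac interstitium, had intensities of 113, 72.4, 186 and 166 in heterozygotes, against 70.4, 142, 112 and 85.7 in wild types. Heterozygotes 3 and 4 were highest and heterozygote 2 lay near the bottom. The difference was 0.14 (95% interval -0.30 to 0.59), and -0.0032 without heterozygote 3.

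Col5a1, a chain of the type V collagen that starts and limits fibril growth, had the smallest p of its class. Its intensities were 526, 456, 617 and 572 in heterozygotes, against 261, 648, 424 and 398 in wild types. After normalization 3 heterozygotes lay between 8.93 and 8.95 and heterozygote 3 at 9.28, while wild types ran between 8.57 and 9.25. The difference was 0.17 (95% interval -0.21 to 0.56, adjusted p = 0.971 with limma). Fibrillar folds above 1.71 lay outside the interval of Col1a1, above 1.5 outside that of Col3a1 and above 1.47 outside that of Col5a1.

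**Figure D3:**
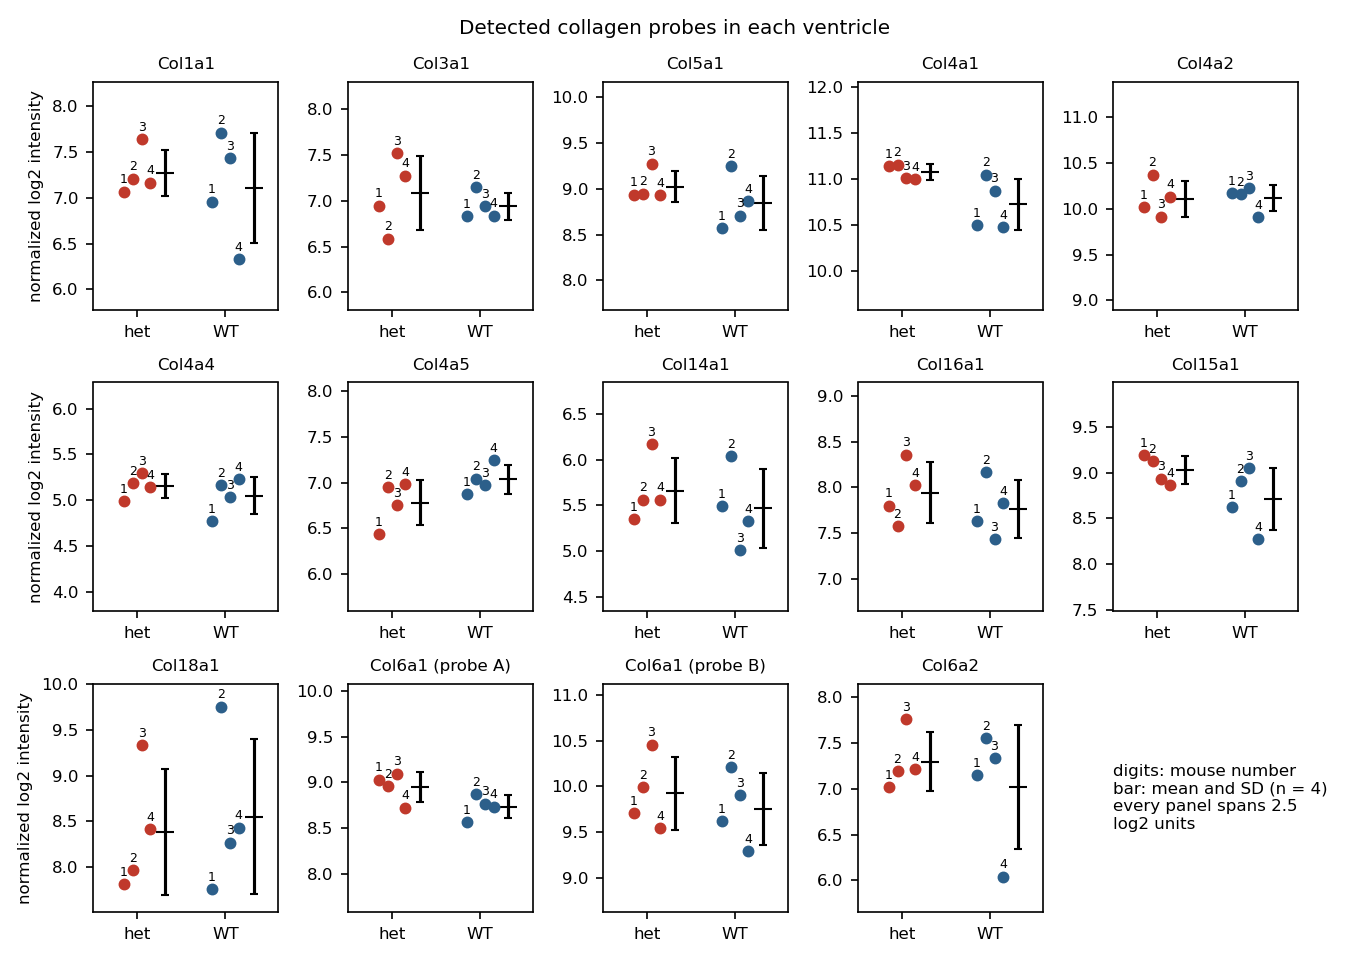
Normalized log2 intensity (vertical axis, every panel spans 2.5 log2 units) of the 14 detected collagen probes in each mouse, heterozygotes left in red and wild type right in blue. Digits are mouse numbers and bars the mean and SD of 4 mice. The genotypes overlap in every panel, and for Col4a1 wild types 1 and 4 lie below all other mice.

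Both detected FACIT collagens were highest in heterozygote 3, with wild type 2 next. Col16a1, which binds fibrils and cell surfaces, had intensities of 221, 163, 336 and 294 in heterozygotes, against 130, 304, 165 and 188 in wild types. Its difference was 0.18 (95% interval -0.29 to 0.64) and 0.04 without heterozygote 3. Col14a1, a fibril-bound regulator of fibril assembly, had intensities of 23.6, 28.1, 70.0 and 35.7 in heterozygotes, against 21.5, 57.7, 17.0 and 20.6 in wild types. On the normalized scale heterozygote 1 lay among wild types 1, 3 and 4. The difference was 0.20 (95% interval -0.34 to 0.73) and 0.03 without heterozygote 3. Leaving out wild type 3 gave 0.04, and leaving out wild type 2 gave 0.38. It was 0.32 without the normexp correction, 0.33 in the authors' normalized values and 0.11 with the larger offset of 50. Col12a1, which is close to Col14a1 in structure, was detected on 2 arrays, those of heterozygotes 3 and 4, with intensities of 16.6 and 21.8. It was under the filter and had no test.

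Type VI collagen forms beaded filaments between cells and fibrils from chains that include Col6a1 and Col6a2. One Col6a1 probe had intensities of 567, 462, 554 and 486 in heterozygotes, against 261, 503, 441 and 365 in wild types, and a difference of 0.22 (95% interval -0.09 to 0.52). The other detected Col6a1 probe had 913, 958, 1378 and 889 in heterozygotes, against 558, 1276, 997 and 550 in wild types. It differed by 0.17 (95% interval -0.37 to 0.71), and by -0.0061 without heterozygote 3. On the normalized scale the first probe was lowest in wild type 1 and the second in wild type 4, and heterozygote 3 was highest on both. A further Col6a1 probe was detected on 0 arrays. Col6a2 had intensities of 119, 120, 222 and 159 in heterozygotes, against 89.7, 194, 152 and 42.9 in wild types. Wild type 4 was far below the others on the normalized scale, at 6.04, and the difference of 0.28 (95% interval -0.40 to 0.96) was -0.050 without this mouse.

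Across mice, Col4a1 went with Col15a1, and the second detected probe of Col6a1 with Col6a2. Of 6 correlations computed over 8 mice, Col4a1 with Col15a1 had r = 0.892 (exact permutation p = 0.00454, adjusted 0.0136 over the 6) and rho = 0.810 (exact permutation p = 0.0218, adjusted 0.0838). Without wild types 1 and 4, the mice farthest from the median of Col4a1, r was 0.486 (exact permutation p = 0.338, n = 6). Leaving out the extremes narrows the range of Col4a1 and leaves 6 mice, so this drop cannot show what the relation rests on. With the genotype means subtracted r was 0.844. Col6a1, by its second probe above, with Col6a2 had r = 0.851 (exact permutation p = 0.00365, adjusted 0.0136) and rho = 0.786 (exact permutation p = 0.0279, adjusted 0.0838). Without heterozygote 3 and wild type 4, r was 0.739 (exact permutation p = 0.0861, n = 6). For the first Col6a1 probe no correlation was computed, so the relation is given for 1 probe and not for the gene. That first probe was lowest in wild type 1, at 8.564, and stood at 8.734 in wild type 4, where Col6a2 was lowest, at 6.042. Col4a1 with Col4a2 had r = 0.303 and rho = 0.310 (exact permutation p = 0.456 and 0.462, n = 8), though their proteins are partners. Col1a1 with Col3a1 had r = 0.524, Col1a1 with Col5a1 0.549 and Col1a1 with Col4a1 0.666, and none of these 3 passed (exact permutation p = 0.182, 0.158 and 0.0771, with rho = 0.5, 0.667 and 0.5 at p = 0.216, 0.0831 and 0.216). Wild types 1 and 4 also had the lowest mean deposited intensities over all probes, 166 and 192, against 204 to 245 in heterozygotes and 226 and 233 in the other wild types. The part of array brightness in these relations was not tested.

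**Figure D4:**
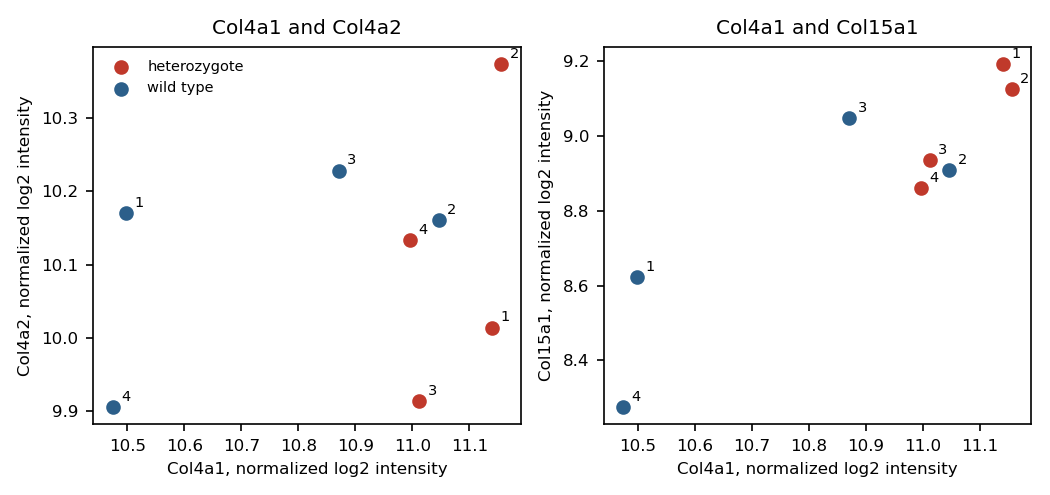
Normalized log2 intensity of Col4a1 (horizontal axes) against Col4a2 (left) and Col15a1 (right, vertical axes) in each mouse, heterozygotes in red and wild type in blue, with mouse numbers. Wild types 1 and 4 sit at the low end of Col4a1 in both panels, and they are the lowest mice for Col15a1. For Col4a2 wild type 4 is the lowest, at 9.906, but wild type 1 lies at 10.17.

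Some mice stood out across the family. Heterozygote 3 was the highest mouse for 8 of 14 collagen probes, beside 19.0% of all detected probes, and the lowest for 0, beside 27.5%. Wild type 4 was the lowest for 6 of 14 and wild type 1 for 4 of 14, beside 14.7% and 12.6% of all detected probes. The median deviation of the 14 probes from their mean over 8 mice was -0.11, 0.04, 0.40 and 0.01 in heterozygotes and -0.23, 0.23, -0.05 and -0.19 in wild types (log2). In heterozygote 3 it was 0.45 for fibrillar, 0.56 for FACIT and 0.60 for other collagens, but -0.02 for those of the basement membrane.

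Markers of other cell types were high in some of the same mice. The 4 measured epicardial and mesothelial markers (of 11 listed) averaged 7.66 in heterozygote 3 and 5.98 to 6.4 in the other heterozygotes, and 7.70 in wild type 2 and 5.85 to 6.03 in the other wild types (log2), and their summed level ran from 8.12 to 10.05 in heterozygotes and from 8.09 to 10.17 in wild types. The summed level of 8 smooth muscle markers (of 10) ran from 13.54 to 14.40 in heterozygotes and from 13.73 to 14.65 in wild types. It was highest in wild type 2, and the defining gene Cnn1 was detected on 0 arrays. Members of this list did not all move together. In heterozygote 3 Des and Myocd were at their lowest (11.80 and 8.22), while Myh11 and Mylk were high (10.07 and 9.15). The 7 measured adipocyte markers (of 10) had summed levels of 14.61 to 15.52 in heterozygotes and 14.71 to 15.05 in wild types, with Fabp4 and Retn on 0 arrays. Lpl was at 14.375 to 14.534 in every mouse, near the top of the scale (14.61), and carried much of that sum. Whether its probe was saturated was not tested. The mean of the 7 varied more, from 7.785 (heterozygote 2) to 11.036 (heterozygote 3) in heterozygotes. In wild types this mean ran from 8.428 (wild type 3) to 9.508 (wild type 4). Lung and airway markers had 2 of 9 members measured, and Scgb1a1 among them stood at 13.44 in heterozygote 3 and 12.98 in wild type 1, with 4.24 to 8.97 elsewhere. Atrial markers (5 of 7 measured) had summed levels of 14.46 to 15.83 in heterozygotes and 14.75 to 15.70 in wild types. They were highest in heterozygote 3 and wild type 2. Nppa was at 14.1 to 14.5 in every mouse, also near the top of the scale, and carried much of that sum. The mean of the 5 ran from 10.3 (heterozygote 2) to 12.8 (heterozygote 3) in heterozygotes. In wild types it ran from 10.9 (wild type 3) to 12.7 (wild type 2). Means were higher in heterozygotes for 4 of 4 epicardial, 1 of 8 smooth muscle, 4 of 7 adipocyte and 2 of 2 lung markers. They were higher for 0 of 5 atrial and 1 of 9 cardiomyocyte markers. In this order the median log2 differences were 0.19, -0.25, 0.48, 0.37, -0.27 and -0.12, and 0 passed in any list. Without heterozygote 3 these medians were -0.16, -0.34, 0.0043, -0.87, -0.86 and -0.10. Without wild type 2 they were 0.56, -0.056, 0.54, -0.16, 0.07 and -0.13, and then 5 of 5 atrial and 4 of 8 smooth muscle markers had higher means in heterozygotes. The part of these tissues in the collagen values was not tested.

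The cells that make most cardiac collagen are fibroblasts. The 14 measured fibroblast markers (of 16) had summed levels of 13.74 to 14.10 in heterozygotes and 13.74 to 13.89 in wild types, and 13 of 14 had a higher mean in heterozygotes (8 of 14 without heterozygote 3). Their median difference was 0.12, with 0.049 without heterozygote 3 and 0.24 without wild type 2, and 0 passed. Fap, a fibroblast surface protease, had a log2 difference of 0.45 and Htra3, a secreted protease, one of 0.36. Tcf21, a transcription factor of fibroblasts, was at 0.32, and Gsn, an actin-severing protein, had the only negative difference of the list, -0.91, and the largest in size. Markers of activated fibroblasts had 4 of 10 members measured, all with positive estimates and a median of 0.19. Without heterozygote 3 the median was 0.16 and 3 of 4 were higher. It was 0.12 without wild type 4, again with 3 of 4 higher, and 0.32 without wild type 2. Tnc was at 0.24, Comp at 0.21, Meox1 at 0.18 and Acta2, which is also in the smooth muscle list, at 0.06. Tnc (4.4 to 5.2 over the mice) and Comp (4.85 to 5.65) were dim. Postn, Cthrc1, Cilp, Thbs4 and Ltbp2 of that list were detected on 0 arrays. Means were higher for 3 of 11 endothelial and 5 of 8 pericyte markers, with medians of -0.10 and 0.07, and 0 passed. Leaving out heterozygote 3, wild type 2 or wild type 4 gave endothelial medians of -0.10, -0.020 and -0.15 and pericyte medians of 0.18, 0.11 and 0.0079. The receptor Flt1, at 0.33, had the smallest p of the endothelial list. Next by p were Tek at -0.19, Egfl7 at -0.20 and Emcn at -0.11, all negative as for most of that list.

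**Figure D5:**
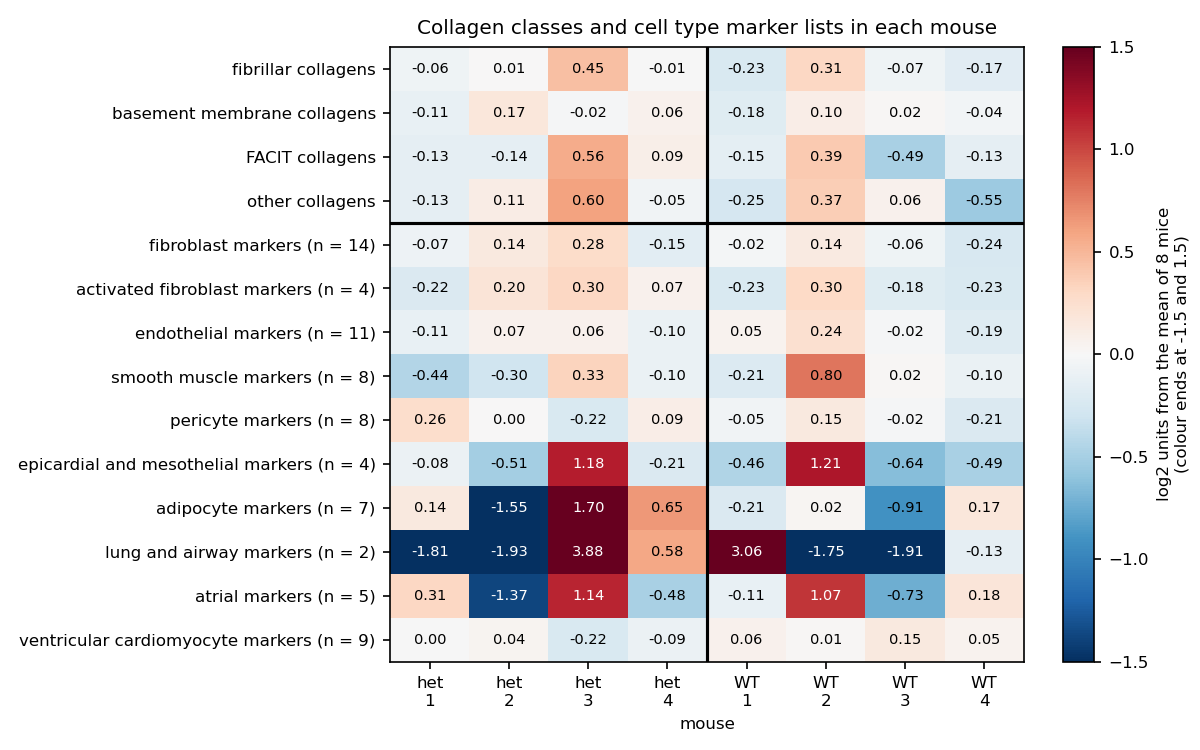
Deviation from the mean of 8 mice (log2 units, colour and digits) of 4 collagen classes (median over detected probes, upper block) and 10 marker lists (mean over n measured genes, lower block), in heterozygous mice left of the line and wild types right of it. Fibrillar, FACIT and other collagens are highest in heterozygote 3 and next in wild type 2, where epicardial, smooth muscle and atrial markers are high too, while basement membrane collagens in heterozygote 3 are at -0.02.

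Enzymes that make collagen showed no common direction. Of the 22 genes listed for hydroxylation, folding and secretion, 16 were measured, 10 higher and 6 lower with a median difference of 0.06, and 0 passed. The median was 0.027, 0.15 and 0.022 without heterozygote 3, wild type 2 or wild type 4. Serpinh1, the collagen-specific chaperone, was at 6.85, 6.74, 6.47 and 6.67 in heterozygotes and 6.10, 6.5, 6.78 and 6.17 in wild types (log2 intensity). Heterozygote 3, highest for most collagens, was the lowest heterozygote here, and the difference was 0.29 (95% interval -0.10 to 0.68). Sec23a, a coat protein of the vesicles that carry procollagen, had a log2 difference of -0.51. It was dim, at 4.32 in heterozygote 1 and 5.82 in wild type 1, its lowest and highest mice. P3h4, a partner of the lysyl hydroxylases, had a log2 difference of -0.33, and the collagen galactosyltransferase Colgalt1 one of 0.17.

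Genes that trim and cross-link collagen had 10 of 18 members measured, 9 of them higher with a median of 0.18, and 6 of 10 higher without heterozygote 3 (median 0.055). The median was 0.30 without wild type 2 and 0.072 without wild type 4. Lox, which oxidises lysines to start cross-links, was at 5.79, 6.32, 7.60 and 6.73 in heterozygotes and 5.63, 7.03, 5.88 and 6.05 in wild types. Its highest mice were heterozygote 3 and wild type 2, as for Col1a1 and Col5a1. Pcolce2 and Pcolce, enhancers of procollagen cleavage, had log2 differences of 0.21 and 0.19, and the proteoglycan Bgn one of 0.18. Collagen receptors and uptake genes had 6 of 13 members measured, 4 higher with a median of 0.04 (0.012, 0.095 and 0.068 without heterozygote 3, wild type 2 or wild type 4). Itgb1, the shared beta chain of the collagen-binding integrins, had a log2 difference of -0.28, with Itga11, an alpha chain that binds fibrillar collagen, at 0.24, the collagen receptor kinase Ddr1 at 0.27 and the scavenger receptor Cd36 at -0.10. Ddr2 and Mrc2 were detected on 0 arrays.

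The partners of type IV collagen in the basement membrane had 11 of 16 members measured, 8 higher and 3 lower with a median of 0.13 (5 of 11 higher and a median of -0.050 without heterozygote 3, and 0.058 without wild type 4), and 0 passed. Nid1, which links laminin to type IV collagen, was at 7.96, 7.96, 8.40 and 7.99 in heterozygotes and 7.73, 7.82, 7.85 and 7.73 in wild types. All heterozygotes lay above all wild types, as for 1.53% of all detected probes, with a difference of 0.30 (95% interval -0.02 to 0.61, adjusted p = 0.947 with limma). Nid2, its close relative, had a difference of 0.24. The 4 measured laminin chains lay on both sides of 0, with Lama2 at -0.56 (95% interval -1.03 to -0.08, adjusted p = 0.947 with limma), Lamb2 at -0.20, Lamb1 at 0.18 and Lamc1 at 0.09.

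The 23 collagen genes without a detected probe included partners of detected chains. Col1a2, the second chain of type I collagen, was detected on 0 arrays, with intensities of 8.30, 3.48, 9.93 and -3.83 in heterozygotes and 2.04, 2.21, 5.96 and 3.40 in wild types, while Col1a1 was detected on all 8. Col5a2, the partner of Col5a1, was detected on 0 arrays as well. No order between genes can be read from this, because Col1a1, Col1a2, Col5a1 and Col5a2 have 1 probe each whose response is unknown. Among other undetected fibrillar genes were the cartilage collagens Col2a1, Col11a1 and Col11a2, with Col5a3, Col24a1 and Col27a1. FACIT members without detection were Col9a1, Col9a2 and Col9a3 of cartilage, Col12a1 and Col19a1. Of the others, Col7a1 of anchoring fibrils, Col8a2, Col10a1, the membrane-spanning Col13a1, Col17a1, Col23a1 and Col25a1, and Col28a1 had none. Of these FACIT and other genes, the best probe of Col12a1 and Col23a1 was detected on 2 arrays and that of Col17a1 on 1, as were those of the fibrillar genes Col2a1 and Col27a1, and the rest of these were on 0. Over all 42 undetected probes, deposited intensities ran from -10.8 to 26.2. The highest of them, in wild type 2, came from a second Col18a1 probe, whose next highest mouse was heterozygote 3 at 19.2, as on the detected Col18a1 probe.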

How the data were processed

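RNA from 8 left ventricles with septum was measured on Illumina bead arrays. In the deposited table without normalization each probe has, per the file headers, an average signal (a bead intensity) and a detection p-value. The deposited intensity values were taken as background-subtracted, since 23.0% to 27.2% per array lay below 0. A deposited table of intensity values normalized by the authors served as an alternative. The sources used here do not give the scanner software or the method of the authors' normalization.

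Intensities were corrected with normexp (limma nec, offset 16), quantile-normalized and taken to log2, which ran from 4.10 to 14.61. Normexp and the offset pull differences of dim probes towards 0. Probes detected on 4 or more arrays were tested with lmFit and eBayes, two-sided, with 95% intervals. Every detected collagen probe is named, intensities per mouse are given for those the results turn on, and from each other list up to 4 genes with the smallest p are named, by the probe with the highest mean. Members and lists were chosen with earlier results of these data known. Collagen classes and lists were matched by symbol, with 5207 older symbols updated through RefSeq (GRCm38.p6). No chip or scan batch could be examined. The gene that carries the knock-in allele is not reported here. The mouse numbers are shared by the genotypes and do not pair littermates in the labels. Fits used limma 3.58.1 in R 4.3.3, and permutations scipy 1.17.1 in Python 3.11.15. Figures were drawn with matplotlib 3.10.9.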

Additional observations from a re-analysis of the deposited data

Results flagged for a closer look

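Dixon's test at the 95% level was applied to the highest and lowest mouse of each genotype, for the 14 collagen probes and their median deviation. It marked 1 of 30 groups, and chance marks about 1 in 20. Col5a1 was at 9.28 in heterozygote 3, against 8.93 to 8.95 in the other heterozygotes (normalized log2 intensity), and the gap was 0.952 of the range.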

How the results depend on the processing

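With every alternative and with each mouse left out, 0 collagen probes had an adjusted p under 0.05, and the smallest was 0.329, with array weights. Over all probes 0 passed in every setting but 1, the removal of heterozygote 3 with wild type 2, where 1 passed (the erythrocyte anion exchanger Slc4a1, 1.39, adjusted p = 0.0431 with limma, named after its value was seen). Probes at an unadjusted p under 0.05 numbered 493, against 1181 with no detection filter, 1553 with array weights, 315 with the mouse number as a block and 300 to 847 with 1 mouse left out (773 without wild type 2, 815 without heterozygote 3 and 847 without heterozygote 2). Without both of heterozygote 3 and wild type 2 there were 1059. Median scaling moved the median of all probes to 0.14 and made 424 of 514 such probes higher, against 215 of 493. The collagen median of 0.17 was 0.33 under that scaling, -0.0049 over all 56 probes with no filter (27 higher), 0.10 with array weights and 0.047 to 0.31 with 1 mouse left out. The number of detected collagen probes was 24 when 1 array sufficed, 19 at a detection p under 0.05 and 13 on all 8 arrays. Symbols updated through RefSeq added 2 probes, detected on 0 arrays.

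Of 210 values of single collagen probes under alternatives that can move an estimate, 194 kept their direction. The other 16 changed sign. Col4a2 became 0.015 with cyclic loess, 0.17 with median scaling and 0.072 without both mice, and ran from -0.10 to 0.057 with 1 mouse left out. With array weights Col1a1 became -0.0079 and the second Col6a1 probe -0.090. With 1 mouse left out Col1a1 ran from -0.10 to 0.36, Col3a1 from -0.0032 to 0.31, that Col6a1 probe from -0.0061 to 0.32, Col6a2 from -0.050 to 0.45 and Col18a1 from -0.49 to 0.23. Without the 2 mice farthest from the median, the correlation of Col4a1 with Col15a1 was 0.486 (adjusted exact permutation p = 0.506). That of the second Col6a1 probe with Col6a2 was 0.739 (adjusted exact permutation p = 0.408). Within genotypes they were 0.844 and 0.841. The cause of these changes was not tested. Values of the gene lists without heterozygote 3, wild type 2 or wild type 4 were added after seeing the data. The replicate block cannot move the estimates in this balanced design, so the collagen median stayed at 0.17, and no collagen call changed. Same-numbered mice correlated between -0.42 and 0.21 in their deviations from the group means, and of 4 heterozygotes, 1 correlated best with the wild type of its own number. Dim probes such as Col4a4 and Col14a1 lie near the floor of the scale, where small differences cannot be resolved. The same limit holds for the probes of Sec23a, Fap, Cd36, Itgb1, Lamb1, Tnc and Comp. The response of probes detected on 0 arrays, such as those of Postn, Ddr2 and Fabp4, is unknown.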
